A study of Mus musculus with 2 samples.

Results

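The sterol synthesis genes measured here are 29 genes that encode the enzymes from acetyl-CoA to cholesterol, the proteins that control SREBP2, and 2 proteins that move or esterify sterol. They were chosen by name, from their known roles, but with earlier results of these data known. Each was read on the arrays of vehicle-treated and IR-61-treated RAW264.7 cells. All 29 had a named probe, out of 20651 genes with one, and all 29 were well above background on both arrays, so that no member was lost to the filter on dim signals. RAW264.7 is a mouse macrophage cell line of male BALB/c origin, raised from the ascites of a tumour induced by Abelson murine leukemia virus. One culture was kept for 24 h with vehicle control and 1 with IR-61, a lipophilic cationic near-infrared dye of the heptamethine cyanine class, at 10 μM by the legend of the microarray panel. Total RNA was labelled with Cy3, and each culture was read on 1 Agilent mouse array of the single-colour kind. A spread between cultures therefore could not be measured, and all differences are given without a test or p-value.

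Cholesterol is built from acetyl-CoA through mevalonate, the isoprenoid pyrophosphates, squalene and lanosterol, which is then trimmed and reduced in the endoplasmic reticulum. The mevalonate part also supplies farnesyl and geranylgeranyl groups for proteins, dolichol and ubiquinone. SREBP2 is the transcription factor that adjusts this pathway. When sterol in the endoplasmic reticulum is low, SCAP escorts SREBP2 to the Golgi, where the proteases S1P and S2P release its active part, and when sterol is high, INSIG proteins hold SCAP back. In macrophages the pathway is read beside a large sterol supply from engulfed material, which is esterified and stored or exported.

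SREBP2 binds sterol regulatory elements, commonly together with NF-Y at CCAAT boxes and Sp1 at GC boxes. The 250 bases before the transcription start were available for 24 of the 29 genes, in 30 promoters from RefSeq on GRCm38.p6, and 4 motifs were searched on both strands: TCACNCCAC and the shorter ATCACCCC for the sterol regulatory element, CCAAT, and GGGCGG. The first 2 can overlap each other. The shorter form was added after the sequences had been read. The promoters below belong to the 3 genes with the largest falls and the gene with the largest rise, with *Hmgcs1* added because it held the only match to TCACNCCAC. They run 5′ to 3′ and capitals mark the matches.
Lss (chr10:76531355-76531604, plus strand): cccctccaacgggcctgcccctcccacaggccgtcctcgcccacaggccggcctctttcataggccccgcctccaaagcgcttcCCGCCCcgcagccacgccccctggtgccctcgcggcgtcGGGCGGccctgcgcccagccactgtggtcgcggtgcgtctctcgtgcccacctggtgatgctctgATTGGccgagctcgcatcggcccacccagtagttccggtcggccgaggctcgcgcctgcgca
Hsd17b7 (chr1:169969206-169969455, minus strand): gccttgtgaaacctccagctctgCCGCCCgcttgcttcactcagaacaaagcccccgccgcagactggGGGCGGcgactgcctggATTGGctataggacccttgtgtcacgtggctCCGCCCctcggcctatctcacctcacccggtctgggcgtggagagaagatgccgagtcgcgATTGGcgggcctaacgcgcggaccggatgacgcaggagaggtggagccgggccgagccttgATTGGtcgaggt
Srebf2 (chr15:82147019-82147268, plus strand): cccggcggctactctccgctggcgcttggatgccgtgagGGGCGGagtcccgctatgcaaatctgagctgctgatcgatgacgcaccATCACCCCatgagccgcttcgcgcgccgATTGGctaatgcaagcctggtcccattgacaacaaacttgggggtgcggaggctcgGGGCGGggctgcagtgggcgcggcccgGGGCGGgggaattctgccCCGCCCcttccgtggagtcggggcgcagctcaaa
Ggps1 (chr13:14063489-14063738, minus strand): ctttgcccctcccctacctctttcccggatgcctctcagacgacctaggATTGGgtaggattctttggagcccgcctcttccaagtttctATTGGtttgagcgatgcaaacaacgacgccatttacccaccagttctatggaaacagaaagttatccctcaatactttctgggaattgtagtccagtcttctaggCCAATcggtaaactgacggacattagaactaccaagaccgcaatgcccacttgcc
Hmgcs1 (chr13:119690101-119690350, plus strand): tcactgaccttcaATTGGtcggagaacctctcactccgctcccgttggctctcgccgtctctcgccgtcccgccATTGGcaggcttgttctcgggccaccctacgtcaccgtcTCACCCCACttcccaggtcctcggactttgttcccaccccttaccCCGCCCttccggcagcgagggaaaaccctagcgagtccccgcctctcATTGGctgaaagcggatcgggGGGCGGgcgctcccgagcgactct

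CCAAT was present in 20 of the 30 promoters (66.7%), against 33.8% of 32851 promoters of all genes, and GGGCGG in 22 of the 30 (73.3%), against 32.7%. The promoters of all genes were not limited to genes measured on these arrays, whereas all members were measured. These shares therefore do not set the sterol genes apart from other expressed genes. The sterol regulatory element TCACNCCAC was found in *Hmgcs1* alone among the 24 genes, and in 1.05% of all promoters. ATCACCCC was found in *Srebf2* alone, and in 0.654% of all promoters. All 5 promoters shown hold at least 1 CCAAT box, and *Ggps1* holds no GC box. A match to these letters is a description and not a measured binding site, and the other letters of a degenerate element would be missed. *Acat1*, *Fdps*, *Fdft1*, *Sqle* and *Stard4* had no entry.

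Signals below are the processed intensity of each probe, as the scanner software gave it, without scaling between arrays. The IR-61 array was brighter as a whole, with a 75th percentile of log2 intensity of 10.79 against 10.30 for vehicle, so a log2 difference here is IR-61 minus vehicle after the 75th percentile of each array was subtracted. On this scale 16885 genes were measured on both arrays, with a median difference of 0.10, quartiles of −0.15 and 0.34, and 38.8% of genes below 0. A gene takes its brightest probe. The probes of these 29 genes were printed once per array. The error given with a difference was therefore taken from other probes of like brightness that were printed at least 5 times, as the SD that their spots would give a difference of single spots. This spot SD was between 0.095 and 0.231 for the 29 genes and covers noise within an array only.

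The macrophage identity of the cells was checked on 8 markers, of which 7 had a named probe, and all 7 were well above background on both arrays. These markers moved both ways after scaling, from 1.03 ± 0.09 for *Adgre1*, the F4/80 antigen, to −0.83 ± 0.23 for *Spi1*, the transcription factor PU.1. Their summed signals of 192640 (vehicle) and 369032 (IR-61) rest mostly on the bright probes of *Adgre1*, at 52489 and 149992, and *Csf1r*, at 95036 and 139205. Of 16 markers of T cells, B cells, fibroblasts, epithelium and endothelium, 13 were also well above background, while *Cd3g*, *Epcam* and *Cdh1* were not on either array. The summed signals of the 16 were 50510 and 89826 and are set by the probes of *Col1a1*, a collagen gene (27147 and 58670, a scaled difference of 0.62 ± 0.09), and *Dcn* (16543 and 21737, −0.09 ± 0.09), and such sums do not measure shares of cells. Of all probes, 77.6% passed the same flag with vehicle and 81.2% with IR-61. The part of other cells in the results was not tested. In RNA of whole cultures, fewer expressing cells and less RNA per cell cannot be told apart.

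The sterol list was split. Its 3 largest differences were lower values of the late enzymes *Lss* and *Hsd17b7* and of *Srebf2* itself. The 9 mevalonate genes went both ways, with 4 below 0 and 3 above by more than the spot SD and 2 within it, and of the 6 SREBP2 control genes 3 were within it. Of the 29 genes, 15 had a negative log2 difference and 14 a positive one, against 38.8% and 61.2% of all measured genes. With scaling by the median of each array 18 were negative, but that scaling lowered all measured genes alike, to a median of 0.02. The share of all measured genes that were negative under it was not counted, so the 18 cannot be set against 38.8%. With the scaling used elsewhere here, the median of the 29 was −0.07, against 0.10 over all measured genes. Relative to that overall median, 19 of the 29 lay below it and 10 above, where by construction 50% of all measured genes lie below. With normexp background correction 15 of the 29 lay below the overall median, and the distance between the list median and the overall median was −0.03 in place of −0.17. The spot SD was passed by 13 genes downwards and 8 upwards, and the other 8 were within it. The share of all measured genes past this SD was not counted, so counts against it do not set the members apart. Lower by 1.5-fold or more (0.58 on the log2 scale) were 5 of the 29 genes (17.2%), *Lss*, *Hsd17b7*, *Srebf2*, *Fdft1* and *Fdps*, and 5.69% of all measured genes passed the same limit. Higher by 1.5-fold or more was 1 gene (3.45%), *Ggps1*, against 9.79% of all measured genes. At 2-fold, *Lss* alone was lower, against 1.39% of all measured genes, and no member was higher, against 1.99%. Over all genes this is 235 lower and 336 higher, which became 295 lower and 249 higher with scaling by the median. These counts have no error rate, because each condition had 1 array, and the list was not chosen blind to these data. Just outside the 1.5-fold limit lay *Dhcr7*, at −0.51, and *Lbr*, at 0.48, and just inside it *Fdps*, at −0.72.

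**Figure D1:**
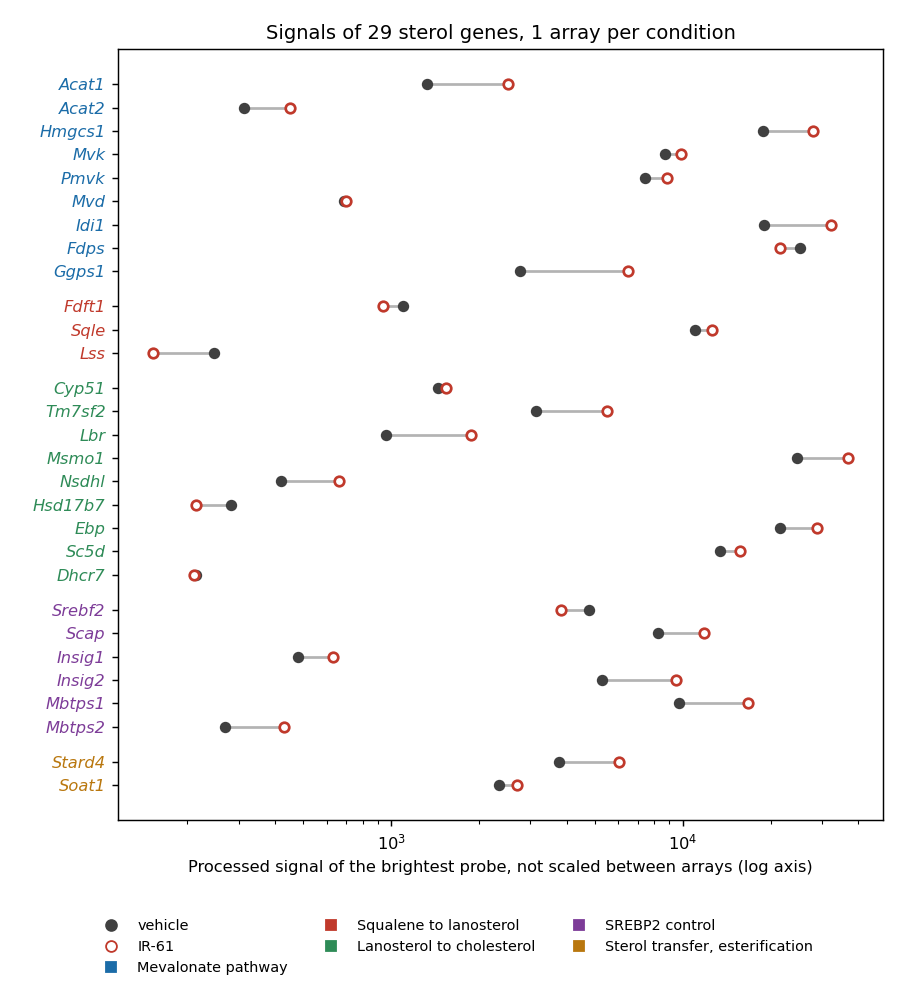
Processed signal of the brightest probe of each of the 29 genes on a log axis, not scaled between arrays, with 1 filled point for the vehicle array and 1 open point for the IR-61 array, and gene names coloured by their place in the pathway. The open point lies to the right in 23 genes, as on the brighter IR-61 array in general, and to the left in *Fdps*, *Fdft1*, *Lss*, *Hsd17b7*, *Dhcr7* and *Srebf2*. Probes of different genes cannot be compared in level.

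Even before scaling, 6 of the 29 genes had a lower signal on the brighter IR-61 array, against 7.95% of all measured genes. These were the 5 genes past 1.5-fold and *Dhcr7*, whose signals of 213 and 211 were close to equal. The other 23 genes had a higher unscaled signal with IR-61. In the plot of signals a small set of genes was thus lower with and without scaling, and for many of the others the sign depends on the scaling.

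In the early steps, *Acat1* and *Acat2* encode the mitochondrial and cytosolic thiolases that join 2 acetyl-CoA, the first of them better known for ketone body and amino acid breakdown. *Acat1* had a signal of 1330 with vehicle and 2524 with IR-61, and a log2 difference of 0.44 ± 0.09 (spot SD), the third largest rise of the list. *Acat2*, the cytosolic enzyme that feeds sterol synthesis, had 312 and 448, and its difference of 0.03 ± 0.23 was within that SD. *Hmgcs1*, the cytosolic HMG-CoA synthase whose promoter holds the element shown above, had 18901 and 28015 and a difference of 0.08 ± 0.09, also within the SD. Of these first enzymes only the mitochondrial thiolase thus stood off from 0 by more than the spot SD, and it stayed between 0.35 and 0.92 under the 12 other settings.

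The 3 enzymes that turn mevalonate into isopentenyl pyrophosphate all lay below 0 after scaling and slightly above it without, at 0.19 for *Mvk*, 0.25 for *Pmvk* and 0.027 for *Mvd*. For mevalonate kinase, *Mvk*, the brightest probe had 8680 and 9870 and a difference of −0.30 ± 0.09, and the second probe 623 and 544 and −0.68 ± 0.23. The phosphomevalonate kinase gene *Pmvk* had 7428 and 8816 at its brightest probe (−0.24 ± 0.09) and 3017 and 2989 at the second (−0.50 ± 0.09). Both kinases were thus lower at each of their 2 probes, and in each the dimmer probe differed more. *Mvd*, the decarboxylase, had 689 and 702, so that its unscaled signals were nearly equal and its scaled difference was −0.46 ± 0.23. Under the other settings that scale the arrays *Mvk* stayed between −0.49 and −0.27.

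The prenyl pyrophosphate steps held the widest contrast among the early genes. *Idi1*, the isomerase that makes dimethylallyl pyrophosphate, had 19017 and 32368 and a difference of 0.28 ± 0.09. *Fdps*, farnesyl pyrophosphate synthase, had 25199 with vehicle and 21502 with IR-61, lower even before scaling, and a log2 difference of −0.72 ± 0.09 (1.64-fold lower). Of all measured genes 3.45% had a lower difference, and without scaling *Fdps* was still lower, at −0.23. *Ggps1*, which adds an isoprene unit to farnesyl pyrophosphate and so supplies geranylgeranyl groups for small GTPases, went the opposite way, with 2773 and 6483 and a difference of 0.74 ± 0.09 (1.67-fold higher). Its second probe had 773 and 1329 and a difference of 0.29 ± 0.19, in the same direction but smaller, and with the mean of the 2 probes *Ggps1* was at 0.52 and no longer past 1.5-fold, the lowest of its values under the 12 other settings. Across the 9 mevalonate genes, 4 were below and 5 above 0, with a median of 0.03.

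The 3 genes of the segment from farnesyl pyrophosphate to lanosterol were all lower with IR-61 after scaling, with a median of −0.72, and *Sqle* alone of them was higher without it, at 0.19. *Fdft1*, squalene synthase, makes the first compound committed to sterols and had signals of 1101 and 936, with a difference of −0.72 ± 0.16 (1.65-fold lower). Its second probe, at 76.2 and 92.6, had a difference of only −0.21 ± 0.23, within the SD, and the mean of both probes was −0.47, short of 1.5-fold. *Sqle*, squalene epoxidase, often rate-limiting for the later steps, had 11024 and 12563 and −0.30 ± 0.09.

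*Lss*, lanosterol synthase, closes the ring system and showed the largest difference of all 29 genes. Its signal was 247 with vehicle and 152 with IR-61, and the log2 difference was −1.19 ± 0.23, a 2.28-fold lower signal. That placed it at rank 150 from the largest fall among the 16885 measured genes. Under the 12 other settings its difference lay between −1.27 and −0.70, the smallest being that without scaling, and it remained lower throughout. Only 1 probe read *Lss*, at a moderate signal where the spread between spots is wider than for bright genes.

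**Figure D2:**
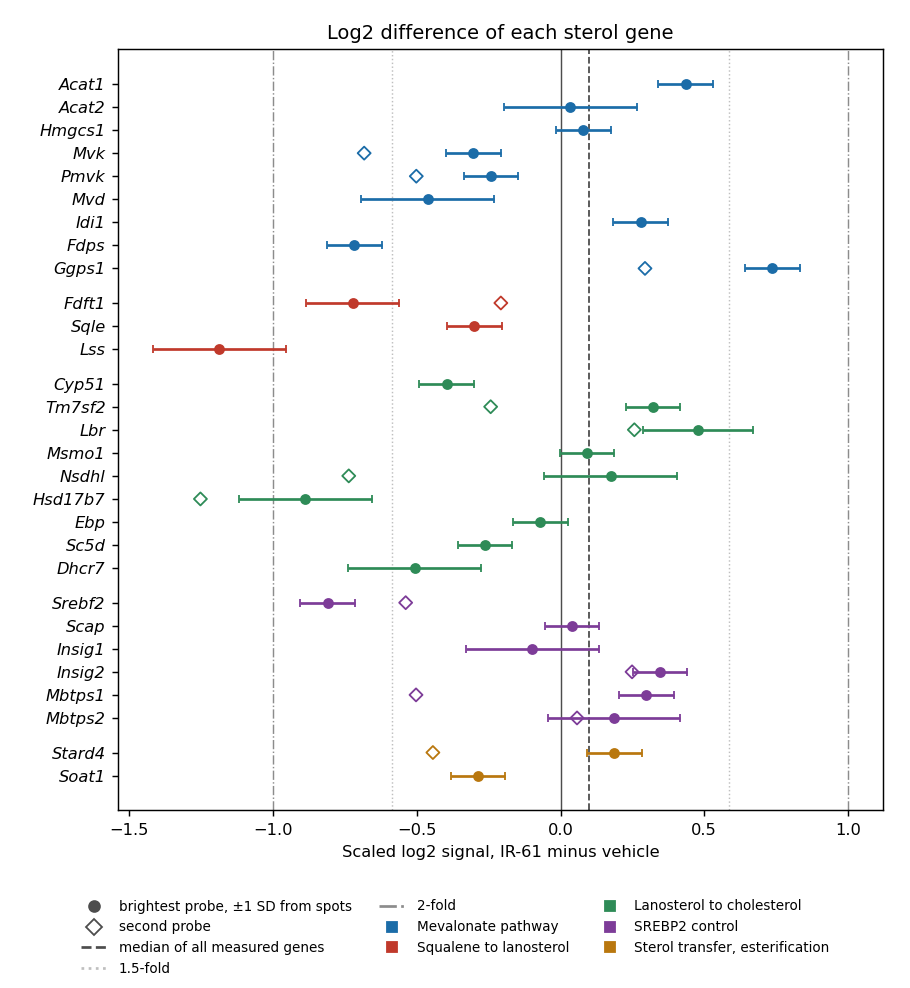
Log2 difference of each gene, IR-61 minus vehicle after scaling by the 75th percentile, with points for the brightest probe, bars of 1 spot SD, and open diamonds for a second probe where the array has one. The dashed line is the median of all measured genes (0.10), the dotted lines mark 1.5-fold and the dash-dotted lines 2-fold. *Lss* is the only brightest probe past the lower 2-fold line, and the diamond of *Hsd17b7* also lies beyond it.

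From lanosterol to cholesterol the 9 genes were mixed, with 5 below and 4 above 0 and a median of −0.07. *Hsd17b7*, the ketoreductase of the demethylation complex, stood out, with signals of 282 and 214 and a difference of −0.89 ± 0.23 (1.85-fold lower). The second probe gave 132 and 77.7 and an even lower difference of −1.25 ± 0.23 (2.38-fold lower). It was the member whose large difference was repeated by another probe at 2-fold or more, and under the 12 other settings it stayed between −1.07 and −0.40. The partner enzyme in the same complex, *Nsdhl*, had 419 and 664 at its brightest probe, a difference of 0.18 ± 0.23, but 414 and 348 at its second, a difference of −0.74 ± 0.23. These 2 probes had nearly equal signals with vehicle and disagreed in direction, and their mean was −0.28, so no direction can be given for *Nsdhl*.

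*Msmo1*, the methyl sterol oxidase that starts the demethylation, followed the array, with 24648 and 36869 and 0.09 ± 0.09. *Cyp51*, lanosterol demethylase, had 1445 and 1541 and −0.40 ± 0.09, which became 0.092 without scaling. The 2 sterol reductases that act after it were both higher at their brightest probes. *Tm7sf2* had 3138 and 5503 and a difference of 0.32 ± 0.09, although its second probe, at 282 and 334, had −0.24 ± 0.23. *Lbr*, which is also an anchor of chromatin at the nuclear envelope, had 963 and 1883 and a difference of 0.48 ± 0.19 (1.39-fold higher), and 252 and 422 at the second probe with 0.26 ± 0.23. Its values under the 12 other settings ran from 0.37 to 0.97. *Lbr* was thus higher at both probes, while the probes of *Tm7sf2* disagreed.

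The last steps moved little to moderately. *Ebp*, the sterol isomerase, had 21555 and 28806 and a difference of −0.07 ± 0.09, within the SD, and it turned to 0.03 with normexp background correction and to 0.42 without scaling. *Sc5d*, the lathosterol desaturase, had 13464 and 15749 and −0.26 ± 0.09, and 0.23 without scaling. *Dhcr7*, the final reductase of one branch, had 213 and 211 and −0.51 ± 0.23 (1.42-fold lower). The bright genes among them lay closer to 0 than the dim *Dhcr7*, whose spot SD was also wider.

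**Figure D3:**
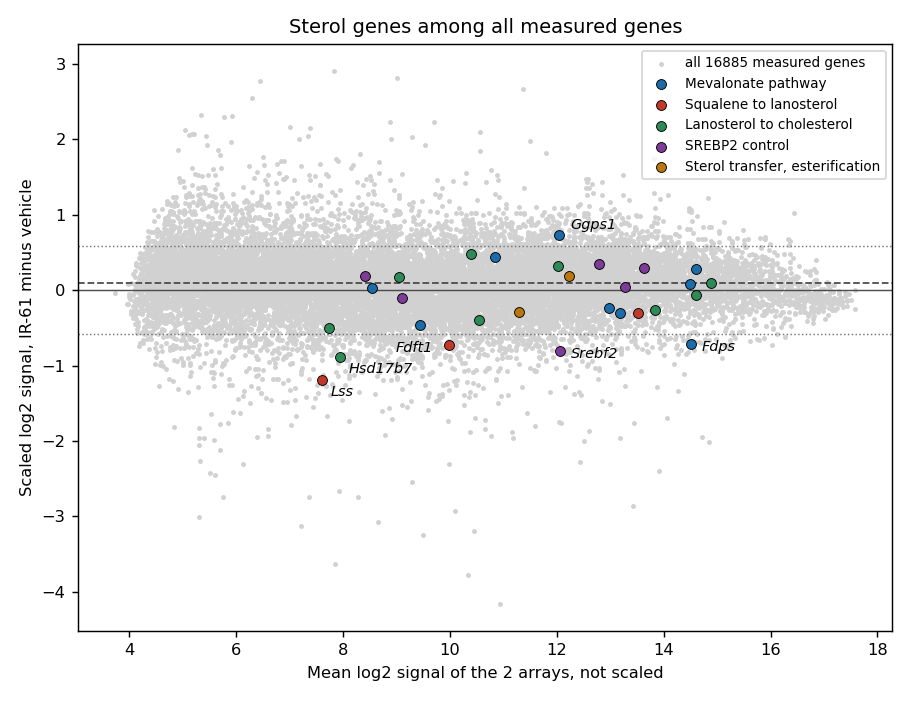
Scaled log2 difference against the mean log2 signal of the 2 arrays for all 16885 measured genes in grey and the 29 sterol genes in colour by their place in the pathway. The dashed line is the median of all genes and the dotted lines mark 1.5-fold. The 6 labelled genes are those past 1.5-fold, with *Lss* and *Hsd17b7* toward the dim end and *Fdps* among the brightest.

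Among the genes that control the pathway, *Srebf2*, which encodes SREBP2, was the only one past 1.5-fold. Its brightest probe had 4762 with vehicle and 3809 with IR-61, and a log2 difference of −0.81 ± 0.09 (1.75-fold lower), the largest of the list relative to the spread between spots. The second probe had 382 and 369 and −0.54 ± 0.23 (1.45-fold lower). Both probes were lower after scaling. Before it the brightest was also lower, while the signals of the second were close to equal. Of all measured genes, 2.44% had a lower difference than the brightest probe, and the value of *Srebf2* under the 12 other settings lay between −0.89 and −0.32.

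*Scap*, the escort protein, had 8230 and 11868 and a difference of 0.04 ± 0.09, within the SD. *Insig1*, which SREBP2 itself induces and which holds SCAP back, had 481 and 630 and −0.10 ± 0.23, again within the SD. *Insig2*, the related retention protein that is not tied to SREBP2 in the same way, had 5299 and 9454 and 0.35 ± 0.09, with 3057 and 5095 and 0.25 ± 0.09 at the second probe. *Insig2* was therefore higher at both probes, by less than 1.5-fold, while the single probe of *Insig1* showed no difference beyond noise between spots.

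The proteases that cut SREBP2 gave smaller values. *Mbtps1*, which encodes S1P, had 9704 and 16741 and 0.30 ± 0.09 at its brightest probe, and 93.5 and 92.6 and −0.50 ± 0.23 at a probe that was far dimmer. The mean of its probes was −0.10, so the direction rests on which probe is read. *Mbtps2*, which encodes S2P, had 269 and 430 and 0.19 ± 0.23, and 84.6 and 123 and 0.06 ± 0.23 at the second probe, both within the SD.

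Of the 2 genes for sterol handling, *Stard4*, a cytosolic sterol carrier and known SREBP2 target, had 3775 and 6030 and 0.19 ± 0.09, but 506 and 521 and −0.44 ± 0.23 at its second probe, and the mean of both was −0.13. *Soat1*, the enzyme that makes the cholesteryl esters of foam cells, had 2350 and 2699 and −0.29 ± 0.09, and was higher by 0.20 without scaling. Neither reached 1.5-fold.

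For 13 of the 29 genes the array holds a second probe, and all 42 probes were well above background on both arrays. The 2 probes had opposite signs in 4 of the 13 genes (30.8%), *Tm7sf2*, *Nsdhl*, *Mbtps1* and *Stard4*, against 41.4% of the 4158 genes with at least 2 measured probes. The median gap between the 2 probes was 0.38 on the log2 scale, against 0.32 over those 4158 genes. Disagreement of this size was common on these arrays, and it was larger than the spread between spots in part of the genes, since the gap passed 2 SD in 5 of the 13 (38.5%) and in 28.5% of all. Of the 6 genes past 1.5-fold, *Hsd17b7*, *Srebf2*, *Fdft1* and *Ggps1* had a second probe, and each of these 4 had the same sign at both, while *Lss* and *Fdps* rest on 1 probe each.

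**Figure D4:**
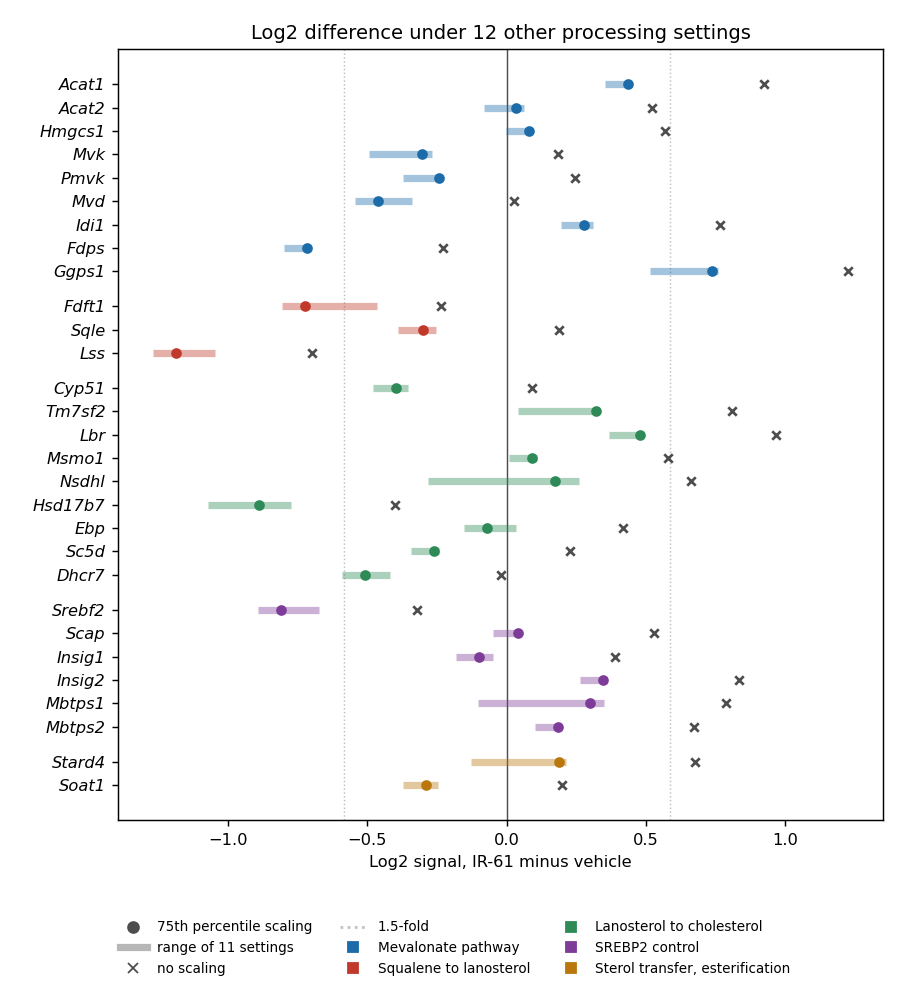
Log2 difference of each gene under other processing, with points for the scaling by the 75th percentile, thick bars for the range over 11 other settings and crosses for the values without scaling. Dotted lines mark 1.5-fold. The crosses lie 0.49 to the right of the points in every gene, and the long bars of *Nsdhl*, *Mbtps1*, *Stard4*, *Tm7sf2* and *Fdft1* come from averaging 2 probes.

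A list of 37 other genes of the pathway was read in the same way. It was chosen by role, also with earlier results known, and all 37 were well above background on both arrays. Their median log2 difference was 0.02, with 18 below and 19 above 0. Of these genes 1 was lower by 1.5-fold or more (2.70%) and none was higher, against 5.69% and 9.79% of all measured genes. That gene was *Cyb5r3*, the cytochrome b5 reductase that passes electrons to the sterol oxidase and desaturase, with signals of 4906 and 3349 and a difference of −1.04 ± 0.09 (2.05-fold lower). Its second probe had 218 and 190 and −0.68 ± 0.23 (1.61-fold lower). *Cyb5b*, a gene of the cytochrome b5 family, had 12406 and 21626 and 0.31 ± 0.09 at its brightest probe. Its second probe had 792 and 635 and −0.81 ± 0.23 (1.75-fold lower), so no direction can be given for *Cyb5b*. *Por*, which serves *Cyp51* and *Sqle*, had 46104 and 59922 and −0.11 ± 0.09.

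The largest rise of that list was *Rabggtb*, a subunit of the enzyme that attaches geranylgeranyl groups to Rab proteins, with 1986 and 3980 and 0.51 ± 0.09. Its second probe, at 1693 and 2101, had −0.18 ± 0.09, so the 2 probes disagreed. Among genes for the breakdown of sterol-regulated proteins and for SREBP traffic, 5 of 6 were above 0 with a median of 0.23, against 61.2% of all measured genes above 0, led by *Erlin1*, which takes part in degradation at the endoplasmic reticulum, with 5948 and 11255 and 0.43 ± 0.09. Of the 8 transport genes 6 were below 0, against 38.8% of all measured genes, but 3 of them were within the spot SD, and the median was −0.05. The lysosomal exporter *Npc1* had 2292 and 2459 and −0.39 ± 0.09, its soluble partner *Npc2* 84039 and 95116 and −0.31 ± 0.09, and *Gramd1b*, which draws sterol from the plasma membrane, 3956 and 3964 and −0.49 ± 0.09. None of these 3 was lower before scaling. *Srebf1*, the related factor that favours fatty acid genes, had 247 and 298 and −0.22 ± 0.23, within the SD.

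**Figure D5:**
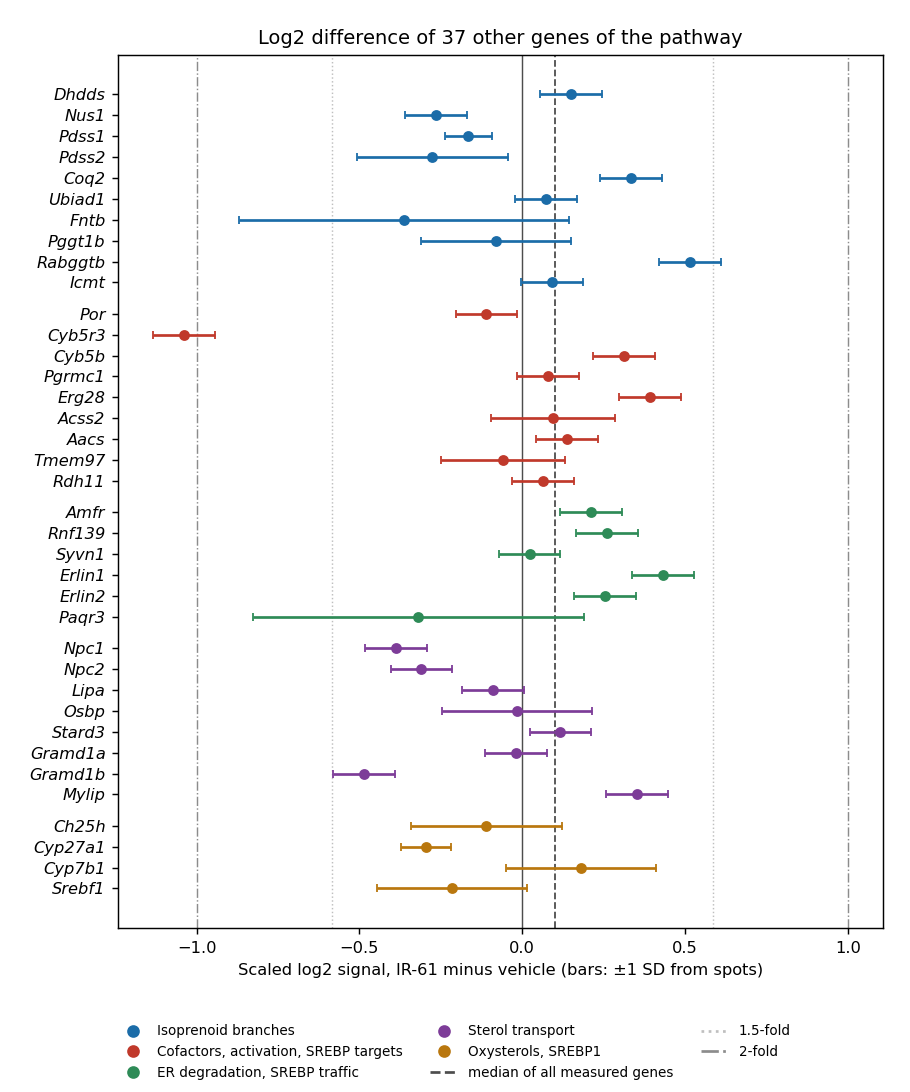
Log2 difference of the 37 other genes of the pathway, IR-61 minus vehicle after scaling by the 75th percentile, with points for the brightest probe and bars of 1 spot SD. The dashed line is the median of all measured genes, the dotted lines mark 1.5-fold and the dash-dotted lines 2-fold. *Cyb5r3*, at −1.04, is the only gene of the 37 outside the dotted lines.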

How the data were processed

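Gene expression was measured in 1 vehicle-treated and 1 IR-61-treated culture of RAW264.7 cells, with 1 single-colour Agilent array each, and the groups were taken from the sample labels. The authors deposited the intensity of each spot, background-subtracted and detrended within the array by Agilent Feature Extraction (version 11.0.1.1 per the file headers, 11.0.0.1 per the labels), with 0/1 flags for saturation, outliers and background. They also deposited a table of log2 values, whose 2 columns share their quartiles (4.59 and 10.66) as quantile normalization gives, and which followed the intensities with a Pearson r across probes of 0.9995 and 0.9988.

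Control spots and outlier spots (124 and 139) were left out, no spot was saturated, log2 intensities were averaged per probe, and the 75th percentile over 39419 probes was subtracted. The array design gives build mm9, so names alone were taken from RefSeq accessions of GRCm38.p6, without versions, which named 27218 probes. A gene took its brightest probe. The members, lists and motifs were chosen with earlier results of these data known. Every member is named, with full values for those with a probe past 1.5-fold and the 3 largest falls and rises; of the other pathway genes, those past 1.5-fold, the largest rise and the largest fall are named by rule, and the others shown were chosen after their values were seen. The number of arrays limits the precision, and no test was run. The steps were tested on simulated data. The 12 alternatives were other scalings, the deposited log2 values, normexp (offset 50, on the median signal), probe averaging, outlier spots kept, other filters on dim probes and removal of a trend over the array. Python 3.11.15, numpy 2.4.6, pandas 2.3.3, statsmodels 0.14.6, matplotlib 3.10.9, R 4.3.3 and limma 3.58.1 were used.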

Additional observations from a re-analysis of the deposited data

How the results depend on the processing

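No paired analysis was possible because vehicle and IR-61 were read on a single array each. Without scaling the median of the sterol genes was 0.42 in place of −0.07 and that of all genes 0.59 in place of 0.10, so that the distance between them stayed at −0.17. It moved the median of the other pathway genes from 0.02 to 0.51, left 1 sterol gene lower by 1.5-fold or more (*Lss*) and 0 by 2-fold, and put 10 higher by 1.5-fold or more and 1 by 2-fold. Without scaling the differences of *Cyp51* (0.092), *Mvd* (0.027), *Mvk* (0.19), *Pmvk* (0.25), *Sc5d* (0.23), *Soat1* (0.20) and *Sqle* (0.19) turned positive, as did *Ebp* (0.42) and *Insig1* (0.39), whose values after scaling were within the spot SD. With the mean over the probes of a gene *Mbtps1* (−0.10), *Stard4* (−0.13) and *Nsdhl* (−0.28, from a value within the spot SD) turned negative, 2 sterol genes were lower by 2-fold or more and 0 were higher by 1.5-fold or more. Under the other 10 settings the counts of sterol genes stayed within 1.5 times, and 27 or more of the 29 genes moved by no more than the spot SD. The other filters on dim probes, counted among these 10, cannot change the difference of a gene, so equal values there were fixed in advance. The distance between the medians was −0.13 with loess, −0.09 with quantile normalization and with the deposited log2 values, and −0.03 with normexp. It was widest with the mean over the probes of a gene, at −0.21. Before normexp the background of 4 IR-61 spots was replaced by the array median. Over all genes, 235 lower and 336 higher at 2-fold and 960 and 1653 at 1.5-fold became 72 and 2156, and 193 and 8519, without scaling. With normexp they became 149 and 124, and 753 and 865. Without the filter on dim probes they became 440 and 921, and 1305 and 2782, and with a stricter one 191 and 209 at 2-fold. Dim probes thus limit the counts over all genes more than those of the sterol genes, all of which passed every filter.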
